A study of Rattus norvegicus with 6 samples.

Results

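Wnt2b, Wnt5a, Rspo1, Rspo3, Grem1, Bmp4, Bmp5, Bmp2, Chrdl1 and Nrg1 encode secreted signals that tissue around the intestinal crypt sends to its epithelium. These 10 genes were taken by name from the 28282 genes of the count tables and were followed in single-nucleus RNA sequencing of rat ileum. The libraries came from 6 wild-type male Sprague-Dawley rats, 6 weeks old, with 1 library per rat. Severe acute pancreatitis (SAP, n = 3) was induced by infusing 3% sodium taurocholate, a bile salt, backwards into the pancreatic duct at 0.1 mL per 100 g of body weight and clamping the duct for 5 min. Control rats (CON, n = 3) had a sham laparotomy with no infusion, so that both groups shared the anaesthesia and the opened abdomen, and ileum was taken 24 h later. The ileum was trimmed of attached fat and cut to avoid lymphoid patches before nuclei were isolated, so the fat and lymphoid nuclei described here are those that remained.

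A crypt keeps its stem cells through Wnt ligands, which bind Frizzled receptors, and through R-spondins, which bind Lgr receptors and keep the ligases Rnf43 and Znrf3 from clearing Frizzled off the cell surface. Bone morphogenetic proteins (BMPs) act against this program higher along the crypt and villus axis, and secreted antagonists such as gremlin 1 and chordin-like 1 hold BMPs off their receptors near the crypt base. Neuregulin 1 is an EGF family ligand for the receptors Erbb3 and Erbb4. In mouse and human gut these signals are known mainly from fibroblasts below the epithelium, from smooth muscle of the mucosa and from nerves.

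Grem1 was the member that passed the test between SAP and CON, and for this reason the sequence before its start is given. The RefSeq promoter table of build GRCr8 held 8 of the 10 members, and did not list Bmp2 or Nrg1. In that build the 250 bases before the Grem1 start lie at chr3:120978320-120978569 on the minus strand, outside the transcribed gene, and read 5′ to 3′ as follows, with the CCAAT motif in capitals.
Grem1 promoter: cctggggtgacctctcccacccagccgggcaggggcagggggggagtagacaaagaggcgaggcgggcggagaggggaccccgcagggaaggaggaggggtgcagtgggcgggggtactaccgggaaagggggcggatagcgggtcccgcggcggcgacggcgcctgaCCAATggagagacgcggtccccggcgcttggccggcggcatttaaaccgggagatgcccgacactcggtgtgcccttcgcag
The CCAAT begins 82 bases before the start. Over the table's whole windows, which add 50 bases after the start, CCAAT on either strand was present in 2 of the 8 members, Grem1 and Bmp5, and in 37.5% of 33469 promoters. TATAAA was in 0 of the 8 and in 14.2% of all promoters, and TGANTCA, searched with any base at N, was in 0 of the 8 and in 7.33%. These are matches of letters and were not read as binding sites.

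Of 7593 to 26215 barcodes per library, 3189 to 9246 passed, 40970 in all, under the study's limits of at least 1200 unique molecular identifiers (UMIs, counts of captured RNA molecules), at least 500 genes and at most 5% mitochondrial UMIs. The nuclei that passed held 5549260 to 28771508 UMIs per library. Barcodes under 1000 UMIs numbered 15242 in the table of CON replicate 2, 20899 in that of SAP replicate 1 and 0 in the other tables, so both libraries stand apart, and the called results are also given without them. Pairs of libraries shared 195 to 746 barcode names among the nuclei that passed, and names were kept apart by library. Clusters were named from marker lists that left out the 10 members, and the members were also left out of the genes used for clustering. The stromal side held 3232 nuclei, the epithelial side 32129, and the stromal classes were smooth muscle cell (SMC)-like with 1446 nuclei, fibroblast-like with 815, endothelial-like with 263, neuron-associated cell (NAC)-like with 200, lymphatic-like with 193, mesothelial-like with 138, ICC-like (interstitial cells of Cajal, the pacemaker cells of gut muscle) with 91 and fat-like with 86. The epithelial side included clusters E0 with 5875 nuclei, E4 with 3377 and E10 with 1535, which were not clustered again and received no name. E0 did not reach the marker score of 0.5 needed for a name, and E4 had 0 raised markers of its best list. Comparisons with all epithelial nuclei below therefore include nuclei that no marker list named. All 8 SMC markers and all 10 fibroblast markers were raised in the clusters named for them. Paneth markers, which define an epithelial cell, still summed to between 3198 and 42795 counts per 1000000 UMIs (CPM) in the stromal nuclei of each library, so these nuclei were not free of RNA from other cells. A level below is in CPM, the gene's UMIs per 1000000 UMIs of the nuclei summed in that library, and it is compared for 1 gene between groups of nuclei, not between genes.

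Most members were read at higher levels in stromal than in epithelial nuclei. Of the 10 genes, 8 were higher in stromal nuclei in all 6 libraries, beside 21.3% of the 18094 genes compared in the same way. Grem1 stood at 92.7 ± 69.0 CPM in stromal and 4.14 ± 4.17 CPM in epithelial nuclei (SD, n = 6 libraries), a difference of 4.14 ± 0.957 on the log2(CPM + 1) scale. For Bmp4 the levels were 57.5 ± 28.1 and 4.82 ± 3.74 CPM, and for Nrg1 they were 233 ± 104 and 26.1 ± 15.3 CPM. Wnt5a, Rspo1, Rspo3 and Chrdl1 differed by 1.97 to 3.23 on the same log2 scale. Bmp2 showed a smaller step, from 7.59 ± 2.25 CPM in epithelial to 16.6 ± 6.24 CPM in stromal nuclei. Each of these 8 genes reached p = 0.0312, the smallest the exact two-sided sign-flip permutation test over 6 paired libraries can give, and an adjusted p of 0.0391 over the 10 members. Bmp5 was higher in stromal nuclei in 5 of 6 libraries (exact p = 0.0625, adjusted p = 0.0694). Wnt2b was also higher in 5 of 6 (exact p = 0.188, adjusted p = 0.188), at 5.39 ± 3.80 against 1.78 ± 0.897 CPM.

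**Figure D1:**
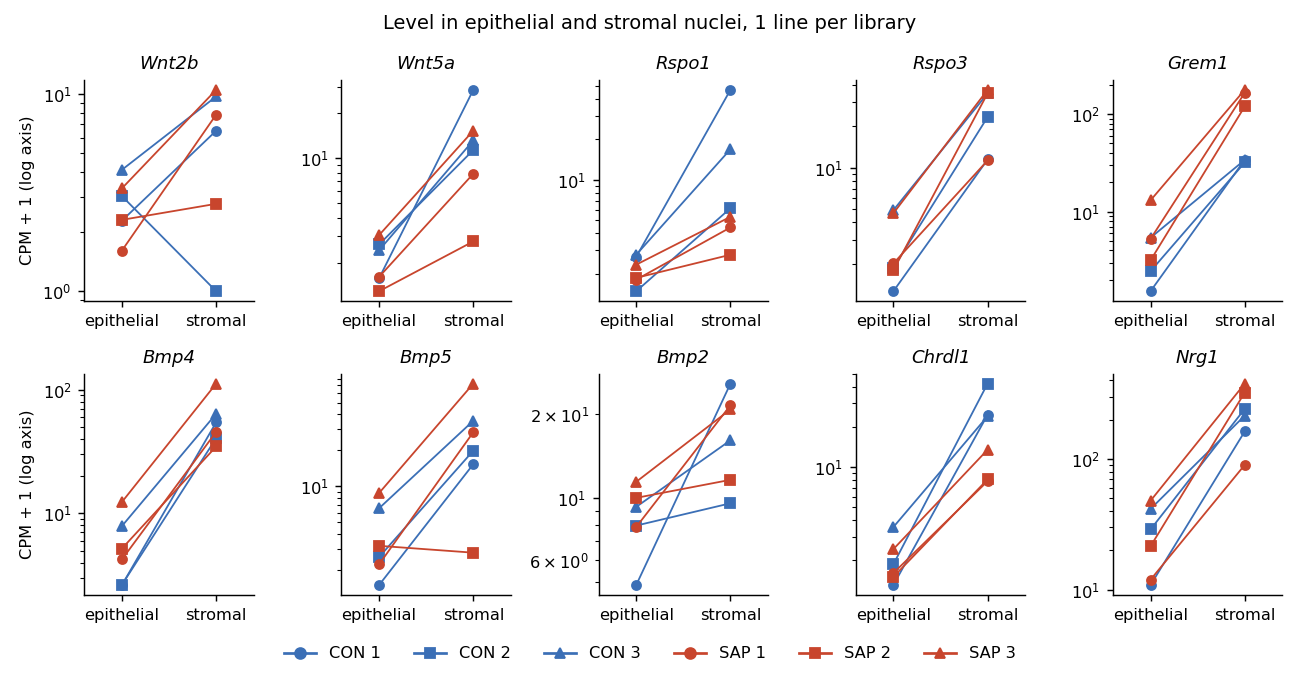
Level of each gene in epithelial and stromal nuclei, 1 line per library (blue CON, red SAP; circle, square and triangle for replicates 1, 2 and 3), as CPM + 1 on a log axis. The lines climb from left to right in all 6 libraries for 8 genes, and in 5 of 6 for Bmp5 and Wnt2b.

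Because epithelial nuclei were so many more, they still held a large part of the counts. Bmp2 had 71.6% of its 772 UMIs in epithelial nuclei and Wnt2b had 56.4% of its 250. The share in stromal nuclei was 63.7% for Grem1, 54.2% for Chrdl1, 52.2% for Rspo3, 52.0% for Bmp4 and 51.7% for Wnt5a. The barcodes under 1000 UMIs of CON replicate 2 and SAP replicate 1 were also read, and whether they hold free RNA or shallow nuclei was not tested. Nrg1 stood there at 41.6 CPM in CON replicate 2 and 16.01 CPM in SAP replicate 1, against 27.9 and 10.9 CPM in all epithelial nuclei of the same libraries. Its epithelial level was unequal between classes: tuft-like nuclei gave 89.2 and 216 CPM of Nrg1 in these libraries and enterocyte-like nuclei 18.9 and 4.85 CPM. Over the 6 libraries Nrg1 ranged from 53.1 to 216 CPM in tuft-like and from 20.6 to 280.5 CPM in enteroendocrine-like nuclei, against 4.85 to 36.5 CPM in enterocyte-like nuclei. Bmp2 stood at 6.97 and 6.88 CPM in the epithelial nuclei and at 6.22 and 5.78 CPM in the low barcodes of the same libraries, and it too was unequal between epithelial classes.

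Among the Wnt ligands, Wnt5a is known for signalling that does not pass through beta-catenin. Classes were ranked by mean log2(CPM + 1) with libraries weighted equally. The ranking took the 19 groups of nuclei that each library filled with 5 or more. The first and the next group were picked by the same values that the test then compared. The p-values between a first group and the next are therefore descriptive. Wnt5a was highest in SMC-like nuclei by this ranking. It stood there at 24.4, 7.48 and 6.50 CPM in CON replicates 1, 2 and 3 and at 10.9, 3.76 and 22.2 CPM in SAP replicates 1, 2 and 3. The 2 groups overlapped, and the margin over the next group of nuclei was not separated from its spread (log2 difference 0.96 ± 1.54, higher in 5 of 6 libraries, exact p = 0.219, adjusted p = 0.365). Mesothelial-like nuclei, the lining of the outer surface, were too few for that ranking, but with libraries pooled they held 43 of the 240 Wnt5a UMIs at 88.4 CPM, of which 30 UMIs came from CON replicate 1 and 12 from CON replicate 3. Wnt2b, a ligand of the beta-catenin branch, had no class that stood out. It ranked first in SMC-like nuclei, at 4.54 ± 2.55 CPM, and the next class, tuft-like, followed at 3.78 ± 2.58 CPM (SD, n = 6, exact p = 0.625). SMC-like nuclei kept the first place in 6 of 12 settings. The mean CPM of fibroblast-like nuclei was higher, at 6.49 ± 11.2 in CON and 7.41 ± 12.8 in SAP (SD, n = 3). With libraries pooled, fibroblast-like nuclei held 26 Wnt2b UMIs, of which 11 were in CON replicate 3 and 15 in SAP replicate 3 and none in the other 4 libraries.

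The R-spondins lay in different nuclei. Rspo3 was highest in SMC-like nuclei, at 16.8, 41.1 and 52.0 CPM in CON and 16.4, 67.6 and 55.1 CPM in SAP replicates 1, 2 and 3. In fibroblast-like nuclei the same libraries gave 16.9, 12.1 and 14.2 CPM in CON and 0, 10.4 and 19.3 CPM in SAP. SMC-like nuclei were thus higher in 5 of 6 libraries, and the difference of 1.94 ± 1.36 (log2) did not pass (exact p = 0.0625, adjusted p = 0.156). ICC-like nuclei pooled over libraries held 12 Rspo3 UMIs at 56.5 CPM. Rspo1 was concentrated in mesothelial-like nuclei, which held 107 of its 333 UMIs (32.1%) at a pooled 220 CPM. Those 107 UMIs were 73 in CON replicate 1, 2 in CON replicate 2 and 32 in CON replicate 3, and there were 0 in the SAP libraries, which held only 6 mesothelial-like nuclei. Among classes present in every library Rspo1 was low throughout, with macrophage-like nuclei first at 14.7 ± 10.6 CPM and 24 UMIs in all.

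The BMP ligands were read in fibroblast-like, SMC-like and epithelial nuclei, and for none of the 3 did the first class differ from the next after adjustment. Bmp4 was highest in fibroblast-like nuclei, at 67.8, 97.1 and 161 CPM in CON and 155, 104 and 237 CPM in SAP replicates 1, 2 and 3. In SMC-like nuclei it stood at 60.9, 44.9 and 39.7 CPM in CON and 32.8, 7.51 and 76.4 CPM in SAP. The fibroblast-like level was the higher in all 6 libraries, by 1.78 ± 1.17 on the log2 scale (exact p = 0.0312, the smallest possible, adjusted p = 0.104 over the members). Bmp5 showed no such order. Fibroblast-like nuclei gave 28.2, 0 and 83.2 CPM in CON and 22.1, 10.4 and 105 CPM in SAP. SMC-like nuclei gave 16.8, 37.4 and 26.0 CPM in CON and 38.2, 0 and 64.9 CPM in SAP (higher in fibroblast-like nuclei in 4 of 6, exact p = 1). The fibroblast-like values came from 10, 0 and 47 Bmp5 UMIs in CON and 1, 1 and 71 in SAP, too few to settle an order. Bmp2 was first in SMC-like nuclei, at 59.4, 7.48 and 20.9 CPM in CON and 16.4, 18.8 and 30.2 CPM in SAP. Goblet-like nuclei, the mucus cells of the epithelium, followed at 17.9 ± 9.02 CPM (SMC-like higher in 4 of 6 libraries, exact p = 0.5625), and SMC-like nuclei kept the first place in 8 of 12 settings. Next in the ranking by mean log2(CPM + 1) came absorptive enterocyte-like nuclei at 10.5 ± 5.84 CPM, while stem/TA-like nuclei of the crypt held 1.60 ± 1.33 CPM (SD, n = 6). Fibroblast-like nuclei, which ranked lower, stood at 3.89 ± 4.52 CPM in CON and 26.5 ± 35.0 CPM in SAP (SD, n = 3), from 6 and 12 UMIs. In each library the stem/TA-like level of Bmp2, between 0 and 3.06 CPM, was below the goblet-like level, between 9.51 and 34.6 CPM.

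The antagonists differed too. Grem1 was highest in SMC-like nuclei, which held 57.4% of its 1082 UMIs, and the mean difference from the next group, the unnamed cluster N8, was 2.91 ± 1.51 (log2, higher in 6 of 6 libraries, exact p = 0.0312, adjusted p = 0.104). Paneth-like nuclei gave 16.4 ± 14.5 CPM and fibroblast-like nuclei 11.6 ± 16.1 CPM of Grem1. SMC-like nuclei were first for Grem1 under each of 12 settings of the ranking. Chrdl1, also a BMP antagonist, was first in SMC-like nuclei of the ranked classes, but the pooled level was higher in classes that were too small to rank. ICC-like nuclei held 36 Chrdl1 UMIs at 169 CPM, with 15, 5 and 12 UMIs in CON and 1, 0 and 3 UMIs in SAP replicates 1, 2 and 3. Fat-like nuclei held 27 at 120 CPM, with 8, 4 and 9 UMIs in CON and 6 UMIs in SAP replicate 3, the only SAP library with fat-like nuclei.

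Nrg1 was highest in NAC-like nuclei, at 1429, 1379 and 1509 CPM in CON and 368, 2140 and 512 CPM in SAP replicates 1, 2 and 3. In this class the CON libraries lay close together and inside the range of the SAP libraries. The difference from the next group was 2.61 ± 1.37 (log2, higher in 6 of 6 libraries, exact p = 0.0312, adjusted p = 0.104). The NAC-like class joined a cluster of 132 nuclei led by Gal, Meg3, Fgf13 and Vip, genes of enteric neurons, and a cluster of 68 nuclei led by Scn7a and Cdh19, genes of glia. The neuronal cluster held 775 of the 780 NAC-like Nrg1 UMIs at a pooled 1724 CPM, and the glial cluster held the other 5 at 34.2 CPM. The class level therefore depends on the mix of the 2 clusters. In the neuronal cluster alone Nrg1 stood at 1629, 1507 and 2202 CPM in CON replicates 1, 2 and 3, from 19, 29 and 37 nuclei. In SAP replicates 1, 2 and 3 it stood there at 429, 2257 and 1012 CPM, from 10, 19 and 18 nuclei. Fibroblast-like nuclei stood at 215, 12.1 and 255 CPM in CON and 199, 62.6 and 770 CPM in SAP, next in order after the unnamed cluster N8. Rspo3 and Chrdl1 had 0 UMIs in NAC-like nuclei, where 3 UMIs would correspond to 5.03 CPM, a limit that covers counting error only.

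**Figure D2:**
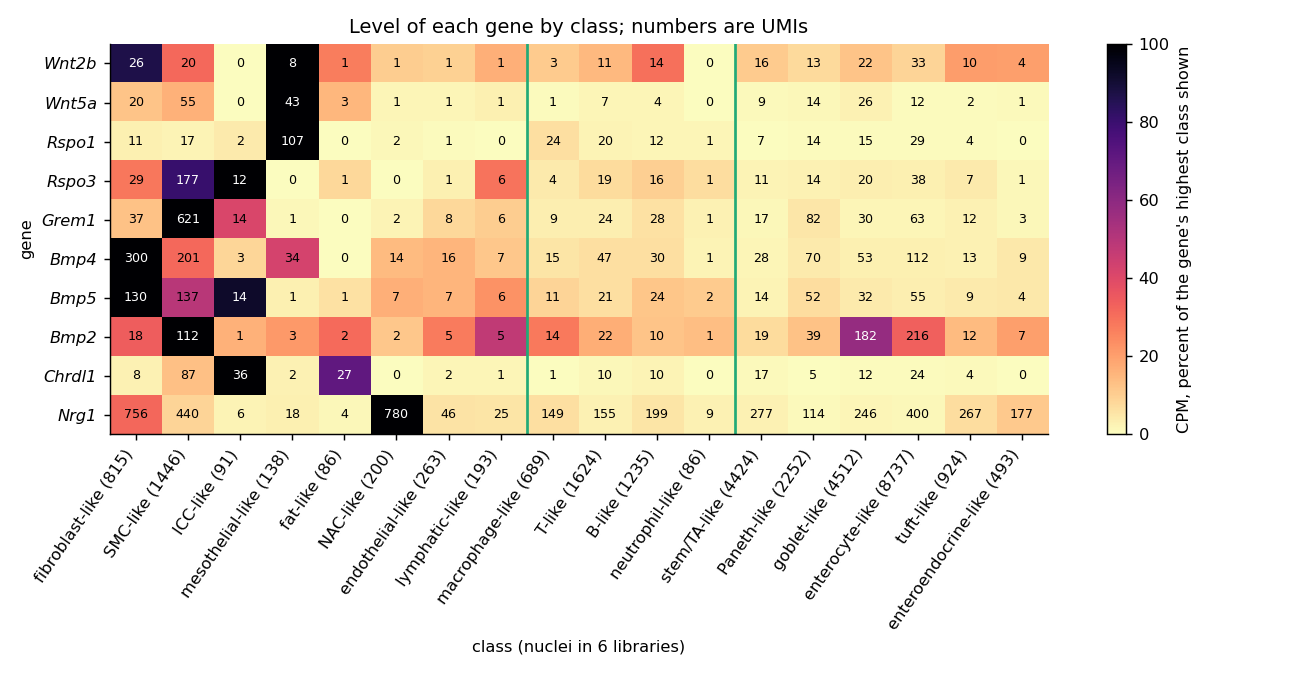
Level of each gene in 18 named classes with the libraries pooled, coloured as percent of the gene's highest class shown; the numbers are UMIs, and green lines part stromal, immune and epithelial classes. Grem1 is darkest in SMC-like, Bmp4 in fibroblast-like, Nrg1 in NAC-like, Rspo1 and Wnt5a in mesothelial-like and Chrdl1 and Rspo3 in ICC-like nuclei.

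The fibroblast-like, SMC-like and ICC-like nuclei and an unnamed cluster (N16) were clustered again without the members, which gave 12 sub-clusters, and levels there are described with no test. Bmp4 was highest in M9 (97 nuclei, led by Adamdec1, S100a3, Pcdh11x, Col6a5 and Scube1) at 390 CPM, and M4 (240 nuclei, led by Efcab3, P2rx1, S100a3, Pcdh11x and Adamdec1) at 235 CPM. Their 95% exact binomial intervals, which cover counting error only, ran from 310.0 to 485 and from 193 to 282 CPM. CON replicate 3 gave 29 and SAP replicate 3 gave 44 of the 81 Bmp4 UMIs in M9. In M4, SAP replicate 3 gave 63 of 112. With the CON libraries alone pooled, Bmp4 stood at 375 CPM in M9 and 151 CPM in M4, below the 196 CPM of M6, described below. Nrg1 was highest in M9 at 805 CPM and M4 at 687 CPM, but SAP replicate 3 gave 128 of the 167 Nrg1 UMIs in M9 and 280 of the 328 in M4. Without that library M9 stayed first at 368 CPM of Nrg1, while M4 fell to 162 CPM and sixth place of the 12. M6 (172 nuclei, led by Fabp4, Hhip, Npnt, Cfd and Cxcl14) carried all 3 BMP ligands, with Bmp4 at 214 CPM, Bmp5 at 161 CPM and Bmp2 at 98.4 CPM, and Nrg1 at 426 CPM (260.1 CPM without SAP replicate 3). Its Bmp2 came from 64 UMIs in 4 libraries, of which 29 were in the 8 nuclei of CON replicate 1, and without that library M6 stood at 57.1 CPM of Bmp2, still the first of the 12. No fibroblast sub-cluster among M2, M4, M5 and M9 exceeded 14.9 CPM. M6 scored highest for a list of subepithelial fibroblasts with high Pdgfra, but its 10 leading genes also held C1qa, Flt1 and Fabp4, which belong to macrophages, endothelium and fat, and 158 of its 172 nuclei had been placed in the SMC-like class. M2 (257 nuclei, led by Ndst4, Fgf9, Ednrb, Als2cl and Taf5) held Bmp5 at 107 CPM (65.5 CPM without SAP replicate 3) and Bmp4 at 115 CPM. Without SAP replicate 3 the highest Bmp5 was that of M9, at 151 CPM, from 16 UMIs of which 14 were in CON replicate 3. M5 (228 nuclei, led by Kcnn3, Scube2, Lama2, Pid1 and Gfpt2) was low in all 3 BMP ligands, with Bmp4 at 38.9 CPM, and gave the highest Rspo1 of the fibroblast sub-clusters at 17.3 CPM from 8 UMIs.

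Grem1 and Rspo3 were highest in sub-clusters of the SMC-like class. M3 (253 nuclei, led by Myl9, Mt2A, Tpm2, Tagln and Ifitm3, contractile and metallothionein genes) held Grem1 at 465 CPM (247 CPM without SAP replicate 3, still the first), and M0 (448 nuclei, led by LOC108348790, Kcnb2, Tafa2, Mapk4 and Epha7) at 86.0 CPM. M8 (101 nuclei, led by Kif26b, Lmcd1 and Fosl1), all in the SMC-like class, held Rspo3 at 115 CPM, and M7, the ICC-like sub-cluster led by Sorcs1, Kcnmb2, Ano1 and Kit, held Chrdl1 at 161 CPM. The sub-clusters M1 with 398 nuclei, M6, M8 and M11 with 67, which lay wholly or mostly in the SMC-like class, scored below the other mesenchymal nuclei for SMC markers, so the class was not pure. M11 was led by Bcas1, Slc12a8 and Spdef, the last a goblet marker of the lists. The leading genes of M1 included Ankle1, Cda, Marveld3 and Slc9a3 and held no SMC marker. When the classes were redrawn by sub-cluster, a choice made after seeing the data, M11 was left out for its epithelial marker and M1 stayed SMC-like. Bmp4 then stood at 147 ± 50.4 CPM in 983 fibroblast-like and 21.0 ± 8.47 CPM in 1199 SMC-like nuclei, the latter from M0, M1, M3 and M8. Bmp5 then stood at 76.8 ± 44.0 against 8.85 ± 8.71 CPM (SD, n = 6), a separation that was not seen in the first drawing of the classes. The redrawing placed M6, which had the highest Bmp5 and lay mostly in the SMC-like class, with the fibroblast-like nuclei. Neither the Bmp4 nor the Bmp5 separation is independent of that move.

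**Figure D3:**
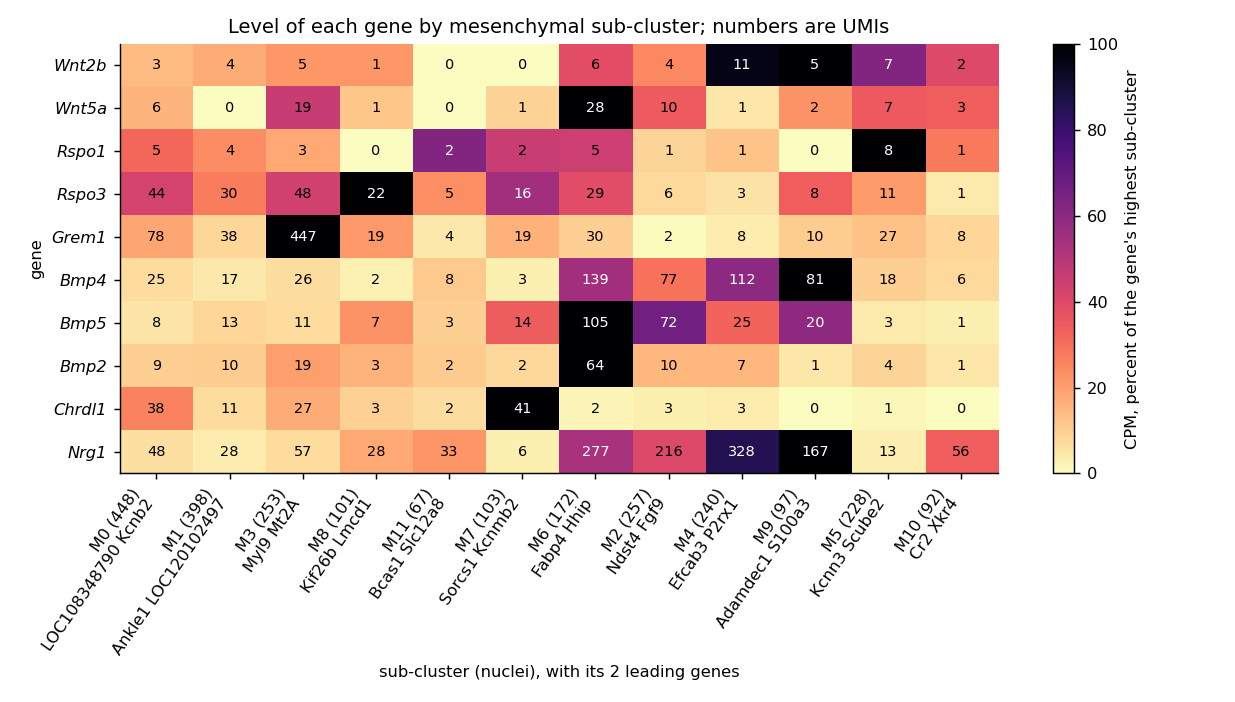
Level of each gene in 12 mesenchymal sub-clusters with the libraries pooled, coloured as percent of the gene's highest sub-cluster; the numbers are UMIs, and each label gives the number of nuclei and 2 leading genes. Grem1 is darkest in M3 (465 CPM), Bmp2 and Bmp5 in M6 (98.4 and 161 CPM), Bmp4 and Nrg1 in M9 (390 and 805 CPM) and Chrdl1 in M7 (161 CPM).

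Grem1 was the only member whose level differed between SAP and CON by the test. In SMC-like nuclei it stood at 79.2, 63.5 and 55.6 CPM in CON replicates 1, 2 and 3, from 52, 17 and 77 UMIs. In SAP replicates 1, 2 and 3 it stood at 262, 252 and 320 CPM, from 48, 67 and 360 UMIs. The groups did not overlap, and the lowest SAP library was over 3 times the highest CON library. Grem1 rose by 2.104 ± 0.267 (log2 fold change ± SE, edgeR's quasi-likelihood test with Benjamini-Hochberg adjustment, adjusted p = 0.0184), and 0.567% of the 8821 genes tested in SMC-like nuclei passed. Over all stromal nuclei Grem1 went from 33.0, 30.9 and 32.9 CPM in CON to 164, 119 and 176 CPM in SAP, which is 2.26 ± 0.248 on the log2 scale (edgeR, adjusted p = 0.0296). Here 0.016% of 12485 genes passed, which is Grem1 and 1 other, St8sia6. The exact permutation test of the CPM values gave p = 0.1 in both groups of nuclei, the smallest that 3 against 3 can give.

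**Figure D4:**
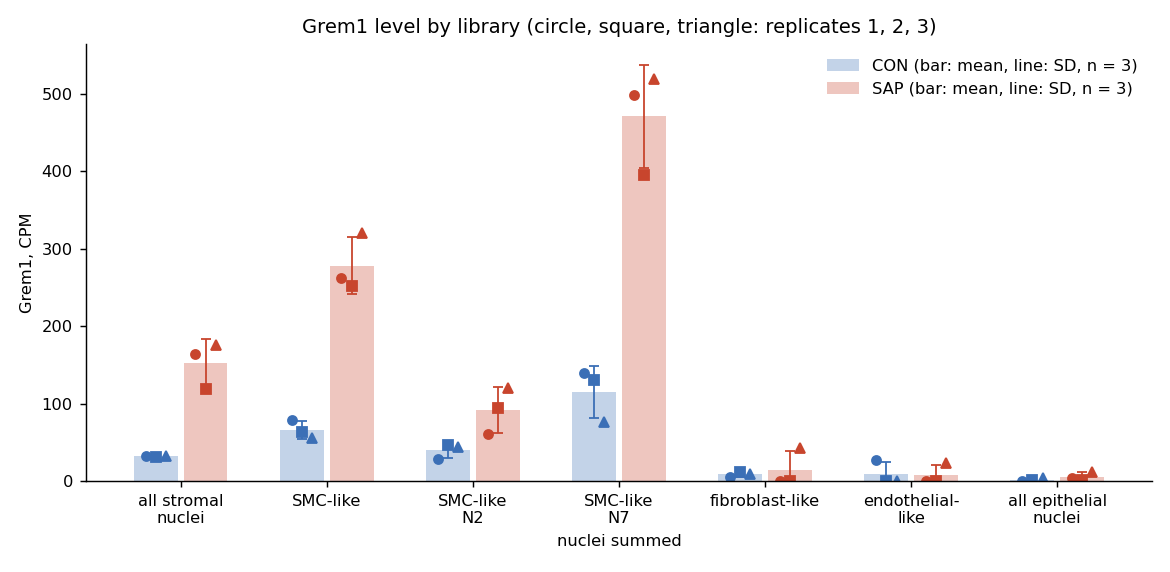
Grem1 level in CPM by library in 7 groups of nuclei (blue CON, red SAP; points are libraries, bars are means and lines are SD, n = 3). The SAP libraries lie above all CON libraries in all stromal nuclei, in SMC-like nuclei and in both SMC-like clusters, with 395 to 519 CPM against 76.8 to 139 CPM in cluster N7, and overlap them in epithelial, fibroblast-like and endothelial-like nuclei.

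In CPM the Grem1 difference was larger in 1 of the 2 clusters that made up the SMC-like class. In both clusters the SAP libraries lay above the CON libraries, and their fold changes were not compared by a test. Cluster N7, led by Tpm2, Myl9, Tagln and Des, gave 139, 130 and 76.8 CPM in CON and 498, 395 and 519 CPM in SAP (log2 2.03 ± 0.373, edgeR on that cluster alone, adjusted p = 0.0203). Cluster N2, led by Sntg2, Tafa2, Cacna1c and Carmn, gave 28.2, 46.8 and 44.7 CPM in CON and 60.7, 94.4 and 121 CPM in SAP (log2 1.31 ± 0.358, adjusted p = 0.253). N7 held 45, 18 and 146 of the 130, 134 and 599 SMC-like nuclei in CON and 30, 33 and 150 of the 92, 78 and 413 in SAP. In the sub-cluster M3, most of which lies in N7, Grem1 stood at 131, 243 and 149 CPM in CON and 656, 456 and 1024 CPM in SAP, again with no overlap. Outside the SMC-like class, the groups overlapped in fibroblast-like and in all epithelial nuclei: fibroblast-like nuclei gave 5.65, 12.1 and 8.85 CPM in CON and 0, 0 and 42.95 CPM in SAP, and epithelial nuclei gave 0.53, 1.45 and 4.4 CPM in CON and 4.25, 2.17 and 12.1 CPM in SAP (log2 1.55 ± 0.743, edgeR, adjusted p = 0.458). The fibroblast-like values came from 2, 1 and 5 Grem1 UMIs in CON and 0, 0 and 29 in SAP, too few for the edgeR test. SAP replicates 1 and 2 held only 26 and 30 fibroblast-like nuclei, with 45277 and 95815 UMIs of all genes. That overlap therefore cannot show whether Grem1 differed in fibroblast-like nuclei. Some smaller groups did not overlap, on few counts: the fibroblast sub-cluster M5 gave 0, 0 and 14.6 CPM in CON and 108 and 140 CPM in SAP replicates 2 and 3, from 2 and 25 Grem1 UMIs, 24 of the 25 in SAP replicate 3. ICC-like nuclei gave 32.3, 0 and 21.9 CPM in CON and 237 CPM in SAP replicate 3, the only SAP library with at least 5 such nuclei. Over all nuclei, where fewer nuclei of a class and less RNA per nucleus cannot be told apart, Grem1 stood at 1.76 ± 0.538 on the log2 scale (adjusted p = 0.545).

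Other markers moved with Grem1 in SMC-like nuclei. The 8 SMC markers summed to between 6909 and 17460 CPM in CON and between 2554 and 5629 CPM in SAP. The 6 pericyte markers summed to between 262 and 549 CPM in CON and between 1019 and 1441 CPM in SAP. Of 5 neutrophil markers 4 had UMIs, summing to between 0 and 10.1 CPM in CON and between 124 and 1163 CPM in SAP, with Cxcr2 at 0. The 7 enterocyte markers in the tables ran from 187 to 1840 CPM in CON and from 1295 to 3384 CPM in SAP, while the 10 fibroblast markers ran from 964 to 1416 and from 834 to 1433 CPM. Their part in the Grem1 result was not tested. The SMC-like call was lost without CON replicate 2 (edgeR, adjusted p = 0.114), without SAP replicate 1 (0.0651) and without both (0.458), with log2 fold changes between 2.048 and 2.102, and the call over all stromal nuclei was lost in 5 of 6 such leave-one-out fits and without both (adjusted p = 0.975).

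The other BMP antagonist among the members went the other way in value and did not pass. Chrdl1 stood in all stromal nuclei at 23.7, 41.2 and 23.1 CPM in CON and 6.85, 7.09 and 12.5 CPM in SAP, with no overlap, from 128 and 35 UMIs (log2 -1.503 ± 0.413, edgeR, adjusted p = 0.256). In SMC-like nuclei it stood at 25.9, 56.1 and 23.8 CPM in CON and 5.46, 11.3 and 15.99 CPM in SAP, also with no overlap (log2 -1.30 ± 0.497, adjusted p = 0.292). The ICC-like and fat-like nuclei, in which Chrdl1 was read most, were fewer in SAP: ICC-like nuclei numbered 13, 17 and 40 in CON and 3, 1 and 17 in SAP, and fat-like nuclei 25, 23 and 15 and 0, 0 and 23. Their part in the stromal value was not tested.

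Rspo1 fell under the filter on low counts in stromal nuclei. Its level was 45.7, 5.15 and 15.9 CPM in CON and 3.43, 1.77 and 4.31 CPM in SAP, from 128 and 12 UMIs, and the groups did not overlap (exact permutation p = 0.1). With every gene kept that had at least 1 count it was called (log2 -2.77 ± 0.604, edgeR, adjusted p = 0.000799). That fit called 462 of 25541 genes, beside 2 of 12485 with the filter. Mesothelial-like nuclei gave 107 of these 140 UMIs, and they numbered 79, 3 and 50 in CON and 0, 0 and 6 in SAP. As a share of all nuclei the mesothelial-like class stood 3.80 ± 1.34 lower in SAP on the log2 odds scale, which did not pass over the 25 classes and clusters (limma on logit shares, adjusted p = 0.425). With the rat number as a block it passed (adjusted p = 0.0276). In SMC-like nuclei Rspo1 stood at 6.09, 3.74 and 5.77 CPM in CON and 0, 0 and 3.55 CPM in SAP, from 13 and 4 UMIs, and in fibroblast-like nuclei at 8.47, 0 and 1.77 CPM and 22.1, 10.4 and 7.41 CPM, from 4 and 7 UMIs. Rspo3 overlapped between the groups in the nuclei of every fit except NAC-like, where it had 0 UMIs.

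For the BMP ligands, Nrg1 and the Wnt ligands no test passed. Bmp4 in fibroblast-like nuclei stood at 109 ± 47.7 CPM in CON and 165 ± 66.9 CPM in SAP (SD, n = 3; log2 0.69 ± 0.406, edgeR, adjusted p = 0.953). In goblet-like nuclei Bmp4 stood at 3.82, 1.61 and 3.09 CPM in CON and 7.61, 7.16 and 9.42 CPM in SAP, from 22 and 31 UMIs, and the groups did not overlap (log2 1.497 ± 0.522, edgeR, adjusted p = 0.478). Bmp5 in all stromal nuclei stood at 14.3, 18.9 and 34.4 CPM in CON and 27.4, 1.77 and 71.6 CPM in SAP, where replicate 3 held the highest level of each group (log2 0.69 ± 0.721, adjusted p = 0.787). Bmp2 in all stromal nuclei was 16.2 ± 8.14 CPM in CON and 17.0 ± 5.53 CPM in SAP (log2 0.00 ± 0.704). Nrg1 in fibroblast-like nuclei was 161 ± 130 CPM in CON and 344 ± 375 CPM in SAP (log2 1.09 ± 0.796, adjusted p = 0.979), and the value turned to -0.55 without SAP replicate 3. Wnt5a in all stromal nuclei stood at 27.5, 10.3 and 12.1 CPM in CON and 6.85, 1.77 and 14.2 CPM in SAP (log2 -0.91 ± 0.616, adjusted p = 0.652). Wnt2b was tested in all nuclei and in all epithelial nuclei, with log2 fold changes of -0.49 ± 0.499 and -0.60 ± 0.50. Besides Bmp4 in goblet-like nuclei, other epithelial classes held members without overlap, on few UMIs in CON and SAP. Bmp2 in Paneth-like nuclei (25 and 14 UMIs) was higher in SAP. Lower in SAP were Wnt2b in tuft-like (6 and 4), Rspo1 in enterocyte-like (17 and 12) and Chrdl1 in stem/TA-like nuclei (16 and 1). Each of these separations had an exact permutation p of 0.1, the smallest that 3 against 3 can give. They were picked from all 10 members in every epithelial class fitted, and most of those comparisons overlapped. How many of all genes separate in this way was not computed, so they are not read as changes of these members.

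In all, 49 tests of members were possible in 13 fits, and the 2 Grem1 tests passed. Over all nuclei 0 of 10 members passed, beside 0% of 19187 genes, although 1618 genes had an unadjusted p under 0.05 and DESeq2 called 215. No member was called in all epithelial nuclei (10 tested, 0% of 17341 genes called), enterocyte-like (4 tested, 0% of 12520), fibroblast-like (2 tested, 0% of 5629) or NAC-like nuclei (1 tested, 0% of 2480). The same held in goblet-like (3 tested, 0.00822% of 12171 genes called), Paneth-like (2 tested, 0.0459% of 8717), stem/TA-like (1 tested, 0.0357% of 11207), tuft-like (1 tested, 0.0142% of 7065) and enteroendocrine-like nuclei (1 tested, 0.0184% of 5449). In endothelial-like nuclei 0 members had the counts to be tested, and 0.0322% of 3102 genes were called. In the fits that called 0 genes, 2021 genes in all epithelial, 899 in enterocyte-like, 325 in fibroblast-like and 174 in NAC-like nuclei had an unadjusted p under 0.05, and DESeq2 called 327, 34, 5 and 0.

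**Figure D5:**
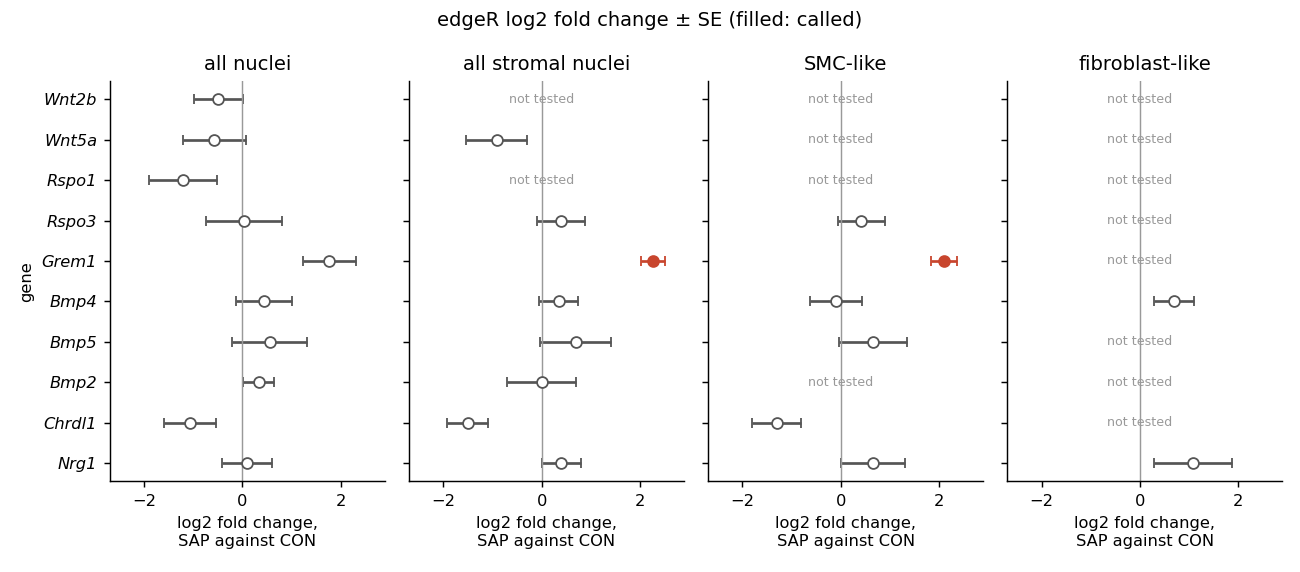
Log2 fold change ± SE of each gene, SAP against CON, in 4 edgeR fits of summed counts (3 rats per group); filled red points passed the test and grey text marks genes with too few counts. Grem1 is filled in all stromal nuclei (2.26) and SMC-like nuclei (2.104), and no other point is filled.

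The receiving side and the rest of each pathway were read from 10 lists of 110 genes. Of these, 88 genes were tested somewhere, in 529 tests, and 2 tests passed, both of Grem1. Among Wnt ligands beyond the members, Wnt3 was read in epithelium, at 28.1 ± 20.3 CPM against 11.3 ± 7.49 CPM in stroma, and highest in an unnamed epithelial cluster (E10, 228 CPM pooled) that held Paneth markers. Wnt5b stood at 79.2 ± 42.4 CPM in stromal and 7.42 ± 3.38 CPM in epithelial nuclei and was highest in SMC-like nuclei, at 242, 146 and 209 CPM in CON and 71.0, 30.0 and 72.9 CPM in SAP. These groups did not overlap, and the test did not pass (log2 -1.75 ± 0.359, edgeR, adjusted p = 0.0617). Wnt4 was highest in fibroblast-like nuclei at a pooled 45.7 CPM. The other R-spondins were scarce, with 132 UMIs for Rspo2 and 50 for Rspo4. The secreted Wnt inhibitor Sfrp1 was highest in fibroblast-like nuclei at 117 CPM, Dkk2 in the unnamed cluster N16 at 224 CPM and Dkk3 in NAC-like nuclei at 57.1 CPM. On the receiving side, the ligase Rnf43 was highest in stem/TA-like nuclei, at 2049 ± 245 CPM (SD, n = 6) against 487 ± 180 CPM in enterocyte-like nuclei. The R-spondin receptor Lgr4 and the Wnt co-receptor Lrp6 were close between the sides, at 228 ± 42.0 and 236 ± 56.7 CPM in epithelium and 184 ± 45.0 and 221 ± 45.0 CPM in stroma. Lgr4 was highest in cluster E4, at a pooled 340 CPM. Rnf43 stood at 788 ± 194 CPM in all epithelial and 507 ± 196 CPM in stromal nuclei. How much of such stromal levels was RNA from other cells was not tested.

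The BMP lists showed ligands on both sides. Bmp3 was read at 53.3 ± 23.9 CPM in epithelial and 31.7 ± 16.4 CPM in stromal nuclei, Bmp7 was spread thinly, with 68.5% of its 949 UMIs in epithelium and its highest pooled level, in ICC-like nuclei at 23.5 CPM, resting on 5 UMIs, and Bmp6 was highest in endothelial-like nuclei at 57.1 CPM. Of the antagonists, Chrd was read mainly in epithelium, with 82.7% of its UMIs there, while Fstl1 stood at 59.5 ± 10.9 CPM in stroma and 5.61 ± 3.26 CPM in epithelium, and Twsg1 at 35.2 ± 10.2 and 14.3 ± 5.15 CPM. Chrdl2, a relative of Chrdl1, was chosen after its values were seen: in SMC-like nuclei it stood at 1.52, 0 and 29.6 CPM in CON and 126, 154 and 101 CPM in SAP, with no overlap and no call (log2 3.10 ± 0.687, edgeR, adjusted p = 0.0908). The receptors Bmpr1a, Bmpr2 and Acvr1 were read on both sides, Bmpr1a at 327 ± 79.3 CPM in epithelium and 319 ± 90.2 CPM in stroma. The pathway's own targets gave Smad7 highest in enterocyte-like nuclei at 249 CPM, Smad6 in fibroblast-like nuclei at 84.7 CPM and Id1 in neutrophil-like nuclei at 406 CPM. In all epithelial nuclei the 7 BMP targets tested had a median log2 fold change of 0.011, beside -0.003 over all genes, and 0 passed. The targets' median was negative in all stromal (-0.296), SMC-like (-0.203), stem/TA-like (-0.342) and enterocyte-like nuclei (-0.229), in Paneth-like nuclei and over all nuclei. It was positive in fibroblast-like (0.252), goblet-like (0.152), endothelial-like, enteroendocrine-like and tuft-like nuclei. Several of these medians cover few targets. Only 1 was tested in endothelial-like nuclei, 3 each in fibroblast-like, enteroendocrine-like and tuft-like nuclei, and 4 each in Paneth-like and stem/TA-like nuclei. No target passed in any of these fits, and the medians themselves were not tested.

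Of the EGF family, Nrg3 was highest in NAC-like nuclei at 935 CPM, and the neuronal cluster held 556 of its 557 UMIs there. Tgfa was highest in goblet-like nuclei at 57.5 CPM and Egf in cluster E10 at 40.5 CPM. The receptors Egfr, Erbb2 and Erbb3 were each highest in enterocyte-like nuclei, Egfr at 520 ± 221 CPM, Erbb2 at 214 ± 62.0 CPM and Erbb3, to which Nrg1 binds, at 264 ± 52.0 CPM, against 167 ± 80.0 CPM of Erbb3 in stem/TA-like nuclei. None of the 4 receptors of this list passed in epithelial nuclei.

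The genes whose level followed each member most closely were sought across 25 classes and clusters, as Pearson's r of mean log2(CPM + 1). These points come from the same 6 libraries and differ in depth, so r is a description. Grem1 was most like Fstl4 (0.865), Acta2 (0.859) and Tpm2 (0.828), the last pair being contractile genes of muscle. Bmp4 was most like the collagen gene Col6a2 (0.865), Fndc1 (0.854) and Pcdh7 (0.820), and Rspo3 most like Bmp5 (0.842), Mettl24 (0.809) and Foxp2 (0.807). Nrg1 followed Ncam1 (0.874), Tafa1 (0.843) and Dlgap2 (0.840). Wnt5a followed Bmper (0.891), Itgbl1 (0.876) and C4a (0.875), and Rspo1 followed Sorbs3 (0.816), Col14a1 (0.8004) and Igfbp6 (0.793). Bmp5 was closest to Opcml (0.843), Hmcn2 (0.833) and Adamtsl3 (0.830), and Chrdl1 to Palm2 (0.799), Ptger3 (0.782) and the BMP receptor gene Bmpr1b (0.751). Bmp2 followed Htra4 (0.702), Trim15 (0.694) and Fbxo4 (0.691), and Wnt2b followed Traf5 (0.798), Mtg2 (0.769) and Hacd1 (0.760).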

How the data were processed

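UMI counts per gene and nucleus were deposited for 6 rat ileum libraries; the authors made them with dnbc4tools, and the submitters' processing notes name mRatBN7.2 and Seurat 4.3.0. The counts were used as deposited, after the study's filters (at least 1200 UMIs, 500 genes, at most 5% mitochondrial UMIs). Nuclei were clustered with scanpy 1.11.5 (2000 variable genes without the members, 30 components, Harmony by library, Leiden resolution 0.8), non-epithelial nuclei were clustered again, and clusters were named from marker lists. The limits for a name (a marker score of at least 0.5 and a lead of 0.5 over the next list, with 3 markers detected and raised and at least 1 among the 50 leading genes) were set after the clusters were seen. Scrublet's own threshold marked 0 to 2 nuclei per library and so did not work; leaving out the 5% highest scores was an alternative.

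UMIs were summed per library and class, and SAP was compared with CON by edgeR 4.0.16 (filterByExpr, TMM, robust quasi-likelihood, Benjamini-Hochberg over all genes) in each class with at least 10 nuclei in every library. A gene was called at an adjusted p under 0.05 and a log2 fold change of at least 0.5 either way. DESeq2 1.42.0 was an alternative, and shares were tested with limma 3.58.1 on logits with 0.5 nuclei added. Levels between classes were compared on log2(CPM + 1) by an exact two-sided sign-flip permutation test over libraries. For the first class against the next, the pair was chosen from the same levels, so those p-values are descriptive. The replicate is the rat, and all samples carry 1 batch label. CON and SAP libraries of the same number deviated together (r over genes of 0.602, 0.228 and 0.450 in all nuclei and 0.152, 0.105 and 0.156 in stromal nuclei), although no source says what a number shares, so a fit with the number as a block was also made. Intervals and limits cover counting error only. The edgeR step was tested on simulated counts.

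The named genes were the members, list genes that were called, the 3 genes of each list with the most UMIs (members apart), the 3 genes most like each member and the 5 leading genes of fibroblast sub-clusters. The members, lists and tests were chosen with earlier results of these data known. Promoter sequences are RefSeq's in GRCr8, another build than that of the counts, and were matched by symbol. The spatial libraries of the study were not analysed here.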

Additional observations from a re-analysis of the deposited data

Results flagged for a closer look

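Grem1 gave a signal in the barcodes under 1000 UMIs, which enter no comparison. SAP replicate 1 held 166 Grem1 UMIs there, or 12.1 CPM (95% exact Poisson interval 10.4 to 14.1, counting error only), and CON replicate 2 held 23 UMIs, or 2.14 CPM (1.35 to 3.21). The Grem1 difference runs the same way as that between the stromal nuclei of these libraries, 164 and 30.9 CPM. The search for this flag took only SAP above CON. Intervals also lay apart with CON replicate 2 the higher for Rspo3 (5.39 against 1.97 CPM), Chrdl1 (2.97 against 0.804 CPM) and Nrg1 (41.6 against 16.01 CPM). With 1 library of each group listing such barcodes there is no replicate check, and the cause was not tested.

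All 10 members were scanned over each pairing of SMC-like, fibroblast-like, all epithelial and NAC-like nuclei. In 3 contrasts every pair of rats with the same number moved one way in 1 group of nuclei and the other way in another. The differences were not tested. No source pairs these rats, and how often other genes show such contrasts was not computed. Rspo1, SAP minus CON, was -4.02 CPM in SMC-like and 9.90 CPM in fibroblast-like nuclei, from 17 and 11 UMIs. Bmp4 was 56.7 CPM in fibroblast-like and -13.6 CPM in NAC-like nuclei, where it had 14 UMIs. Bmp4 was also 2.87 CPM in all epithelial nuclei, against the same -13.6 CPM in NAC-like nuclei. Both Bmp4 contrasts thus rest on the same NAC-like values, which in replicate 3 were 27.1 CPM in CON and 26.1 CPM in SAP, from 5 and 3 UMIs.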

How the results depend on the processing

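Under the alternatives tried, 350 values kept their direction and their side of the threshold, 12 lost the threshold, 25 changed sign and 22 counts of calls moved by over 1.5 times. All 12 losses were of the 2 Grem1 calls, the only member calls that could be lost. The 350 were mainly uncalled tests that stayed uncalled, and they do not speak for the calls. The 2 member tests that passed became 0 to 2 when each library was left out, 1 with a covariate for both libraries that list low barcodes, 1 at Leiden resolution 0.4 and 0 without those libraries. The genes called over the 12 stromal and epithelial fits were 64, with 142 without TMM, 897 with DESeq2, 1950 with no filter beyond 1 count, 11 with the depth covariate, 0 without both libraries and 6 to 217 leaving 1 library out. Grem1 kept its sign in every setting. In all stromal nuclei it lost its call without CON replicates 1, 2 or 3 or SAP replicates 1 or 3 (log2 2.18 to 2.42 over the 6 fits), with the depth covariate (2.26, adjusted p = 0.141), at Leiden resolution 0.4 (2.13, 0.107) and without both libraries (2.13, 0.975). In SMC-like nuclei the range over those 6 fits was 1.95 to 2.32. The fit without both libraries, the redrawn classes, the pooled levels and the fits of single clusters were chosen after seeing the data.

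With the rat number as a replicate block Grem1 kept both calls (2.14, adjusted p = 0.0247 in SMC-like; 2.28, 0.0453 in all stromal nuclei), Nrg1 over all nuclei turned to -0.0620, and the block changed no other call of a member. Mesothelial-like shares passed under the block, so 1 class passed in place of 0, as with stromal nuclei as the denominator (1, log2 odds -3.56, adjusted p = 0.0237); leaving 1 library out gave 0 to 1, the 1 being fat-like without SAP replicate 3 (-4.55, adjusted p = 0.00889).

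Values that changed sign, none of them called, were Rspo3 (-0.0160) and Nrg1 (-0.0495) over all nuclei with the depth covariate, Bmp2 in all stromal nuclei with no filter (-0.0212), at resolution 0.4 (-0.245) and without both libraries (-0.355), Rspo3 in SMC-like cluster N2 alone (-0.183) and Bmp4 in redrawn SMC-like nuclei (0.0393). Leaving out 1 library gave over all nuclei Rspo3 -0.863 to 1.20, Bmp4 -0.263 to 0.916, Bmp5 -0.556 to 1.52 and Nrg1 -0.597 to 0.486. It gave in all stromal nuclei Bmp4 -0.373 to 0.661, Bmp5 -0.862 to 1.23 and Bmp2 -0.237 to 0.470, in SMC-like nuclei Bmp4 -1.31 to 0.342 and Nrg1 -1.37 to 1.11, and in fibroblast-like nuclei Nrg1 -0.548 to 1.54. The causes were not tested. Members first in a stromal class numbered 9, and 7 to 10 under the alternatives. TMM moved the median log2 fold change of all genes by over 0.1 only in Paneth-like nuclei (0.340). Depth limits the low members most: Rspo1, Wnt2b and Wnt5a had 333, 250 and 240 UMIs in all.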

Other observations

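Several members were read in clusters that the marker lists did not name. Cluster N16 (104 nuclei, of which 70 came from SAP replicate 3 and 31 from CON replicate 3) was led by Xkr4, Cr2, Col9a3, Nphs1 and Cxcl13, where Cr2 encodes a complement receptor and Cxcl13 a chemokine that draws B cells. With libraries pooled it held Nrg1 at 242 CPM (55 UMIs), Grem1 at 79.1 CPM (18 UMIs) and Bmp4 at 43.9 CPM (10 UMIs), with Chrdl1 at 0 UMIs. Of the 18 Grem1 UMIs 13 were in SAP replicate 3 and 5 in CON replicate 3. The Wnt inhibitor Dkk2 stood there at 224 CPM and the BMP antagonist Fstl1 at 110 CPM, the highest pooled level of each among the 25 classes and clusters.

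Cluster E10 (1535 epithelial nuclei, led by Gfra4, Kif19 and Samd5) was unnamed because none of its 50 leading genes was a marker of its best list. It held the highest pooled Wnt3 (228 CPM), and Wnt3 was there at 211, 201 and 335 CPM in CON and 178, 98.8 and 218 CPM in SAP replicates 1, 2 and 3. The R-spondin receptor gene Lgr5 stood in the same nuclei at 236, 399 and 494 CPM in CON and 161, 217 and 328 CPM in SAP. All 6 Paneth markers were raised in this cluster.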
